A study of Mus musculus with 18 samples.

Results

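Day 5 after tamoxifen was compared with vehicle in clone C2, on 2 arrays for each group. These 4 arrays are part of a time course of 8 arrays (vehicle, day 5, day 18 and day 32, with 2 arrays each) and of a series of 18. The other 10 arrays belong to a rescue experiment on the same clone, of which the 2 control and the 2 Ezh2 null arrays are used below. The members are all arrays titled as vehicle treated or as TAM treated at day 5, and the measure is the log2 difference of the group means over 18820 genes, with the spread taken from the replicates of the 4 time course groups.

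C2 is a single clone, obtained by limiting dilution from immortalised mouse embryonic fibroblasts (iMEFs) that were transformed with a retrovirus carrying human MYC. Its genotype was Ezh2 flox/Δ with ROSA26-CreERT2 in every group, so vehicle cells already lacked 1 of the Ezh2 alleles and carried the inducible recombinase. Vehicle cells received ethanol and day 5 cells received tamoxifen (4-hydroxytamoxifen in the methods, dose per sample not given), and by the study's account the histone mark was only partly depleted at day 5. In the rescue experiment, Ezh2 pre-rescue cells expressed added Ezh2 before tamoxifen deleted the endogenous gene, and those arrays are not compared here. No time course group was given tamoxifen with Ezh2 kept, and the time for which vehicle cells were cultured is not given. Tamoxifen itself, activation of the recombinase, time in culture and loss of Ezh2 therefore cannot be told apart in this comparison.

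Ezh2 is the catalytic subunit of Polycomb repressive complex 2 (PRC2), which methylates lysine 27 of histone H3 and keeps developmental genes silent. Existing methylation is diluted as chromatin is replicated, so genes under PRC2 control can respond slowly after the enzyme is lost. Fibroblasts also carry programmes that answer quickly to a change of state: interferon-stimulated genes, sterol synthesis under the SREBP factors, the stress response driven by ATF4, and the mitotic programme.

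The values are log2 intensities on the deposited scale, and fold changes are ratios on that scale. The number of arrays limits the precision: replicates correlated across genes with r = 0.998 in both groups, and the median absolute difference between replicates was 0.11 log2 units for vehicle and 0.090 for day 5. Whether the replicates are separate cultures is not given in the labels, and the p-values reflect the scatter of these arrays alone, which may be technical. Each ± gives the standard error of a log2 change with 2 arrays in each group, and adjusted p-values are those of limma with Benjamini-Hochberg adjustment over all genes. Genes are said to have risen or fallen at an adjusted p under 0.05, and the stricter set also changed at least 2-fold.

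The labelled cell type was checked against marker lists. Of 15 fibroblast markers 13 lay above the median gene of the vehicle arrays (5.52), against 1 of 13 blood cell markers, 1 of 10 neuronal markers, 2 of 11 pluripotency markers and none of the endothelial (10), epithelial (11), skeletal muscle (11) or germline (12) markers. From vehicle to day 5 the summed log2 level moved from between 136.9 and 137.3 to between 141.3 and 141.9 for the fibroblast list, and from between 50.3 and 50.6 to between 49.7 and 50.3 for the blood list. The summed endothelial level moved from between 38.9 and 39.1 to between 40.3 and 40.8, with Tek, the angiopoietin receptor gene, at 4.35 and 4.03 on the vehicle arrays and 5.76 and 5.68 at day 5. The endothelial list as a whole did not move 1 way: 2 members rose and 1 fell, with changes between −0.72 and 1.53 and a median of 0.018. Of the defining endothelial markers, Pecam1 read 4.41 and 4.33 and then 5.02 and 4.94, and Cdh5 read 3.35 and 3.39 and then 3.59 and 3.39. The part of these markers in the results below was not tested. In cultured cells measured in bulk, fewer cells of a kind and less RNA per cell cannot be told apart.

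The targeted gene does not check the labels. Ezh2 was at 9.37 and 9.43 in vehicle and at 9.29 and 9.19 at day 5, a change of −0.16 ± 0.084 with a 95% interval of −0.34 to 0.033 (adjusted p = 0.259). The array reads the whole transcript, so this value says nothing about the excised exons. Of 11 measured PRC2 subunits and cofactors 1 rose and 1 fell, beside 11% of all genes that rose and 5.69% that fell. Phf19, an accessory subunit that reads methylated lysine 36, rose by 0.32 ± 0.085 (adjusted p = 0.0306), and its relative Phf1 fell by 0.46 ± 0.10 (adjusted p = 0.0152). Both calls were lost without single arrays, with an adjusted p of up to 0.162 for Phf19 (without day 5 replicate 1) and 0.0874 for Phf1 (without day 5 replicate 2). The paralogous enzyme Ezh1 read 9.17 and 9.05 against 9.31 and 9.39 (0.24 ± 0.077, adjusted p = 0.06), and the core subunits Eed and Suz12 changed by 0.13 ± 0.080 and 0.10 ± 0.080 (adjusted p = 0.344 and 0.473). Of 20 PRC1 subunits 4 rose and 1 fell, namely Cbx7, Pcgf5, Phc3 and Bcor against Rnf2, with changes between −0.49 and 0.52, with 1 rising without vehicle replicate 1 or without day 5 replicate 1.

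Day 5 differed from vehicle by more rises than falls. At any fold 2065 genes were higher (11%) and 1071 lower (5.69%), and each list count below is to be read beside these shares. At least 2-fold, 181 genes were higher (0.962% of genes) and 35 lower (0.186%), and 12 and 2 of these passed 4-fold. Predicted genes and small RNAs made up 21 of the 181 and 2 of the 35. The split at any fold depended on the scaling between arrays, with 1473 higher and 2103 lower after each array's median was subtracted and 1684 and 1546 after quantile normalization, while the 2-fold counts were 143 and 48, and 149 and 50. Without vehicle replicate 1 the counts were 1275 and 802 at any fold and 170 and 54 at 2-fold, and without day 5 replicate 1 or 2 those at any fold were 1317 and 560, and 1247 and 593. Over all genes the median change was −0.0054 and the quartiles −0.12 and 0.14, and the lists below are read beside these.

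Egfl6, a matrix protein with EGF repeats, read 3.35 and 3.19 on the vehicle arrays, under the lower quartile of all genes there (3.57), and 6.38 and 6.25 at day 5, a rise of 8.23-fold (3.04 ± 0.098, adjusted p = 2.18e-06). Both day 5 arrays stood apart from both vehicle arrays, as they did for each gene given array by array in this paragraph and, over all genes, for 28.4% (day 5 higher) and 26.2% (day 5 lower). Dpt, which encodes the matrix protein dermatopontin, moved from 8.60 and 8.76 to 10.85 and 10.72, and so ended among the bright genes (4.3-fold, adjusted p = 4.76e-06). The microfibril gene Mfap5 moved from 4.24 and 4.43 to 6.51 and 6.07 (3.87-fold). The gene lists used below hold 52 of the 181 genes, and most of the largest rises lie outside them. Strip2, a scaffold of the STRIPAK phosphatase complex, rose by 2.44 ± 0.10, the junctional immunoglobulin protein gene Vsig1 by 2.41 ± 0.086 from 2.90 and 3.04, and the calcium-binding phosphatase gene Ppef1 by 2.41 ± 0.095. The chemokine gene Cxcl15 rose by 2.38 ± 0.11 and the cytochrome P450 gene Cyp2f2 by 2.34 ± 0.093. Receptors followed, with Edar (ectodysplasin receptor) at 1.91 ± 0.099 and P2rx7 (ATP-gated channel) at 1.87 ± 0.14. The vitamin B12 carrier gene Tcn2 moved from 6.92 and 6.93 to 8.73 and 8.73 (1.80 ± 0.070).

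Aldoc, the brain-type aldolase of glycolysis, fell from 10.51 and 10.67 to 8.05 and 7.87 (6.19-fold, adjusted p = 2.88e-06). Has2, which makes hyaluronan, fell from 10.87 and 10.67 to 9.04 and 9.04 (3.31-fold). Il1rn, the antagonist of the interleukin-1 receptor, fell from 7.57 and 7.15 to 5.57 and 5.72, with the vehicle arrays further apart than for the other 2 genes. Lcn2, an iron-trapping lipocalin, fell by 1.64 ± 0.11, Tnn (tenascin N) by 1.66 ± 0.098, Chil1 (a chitinase-like lectin) by 1.55 ± 0.14 and Fabp5, which carries fatty acids, by 1.34 ± 0.082. Csrp2, a LIM protein of muscle and fibroblasts, fell by 1.24 ± 0.071 and the transcription factor gene Runx1 by 1.04 ± 0.074. Of the 35 genes 12 are in a list used below.

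**Figure D1:**
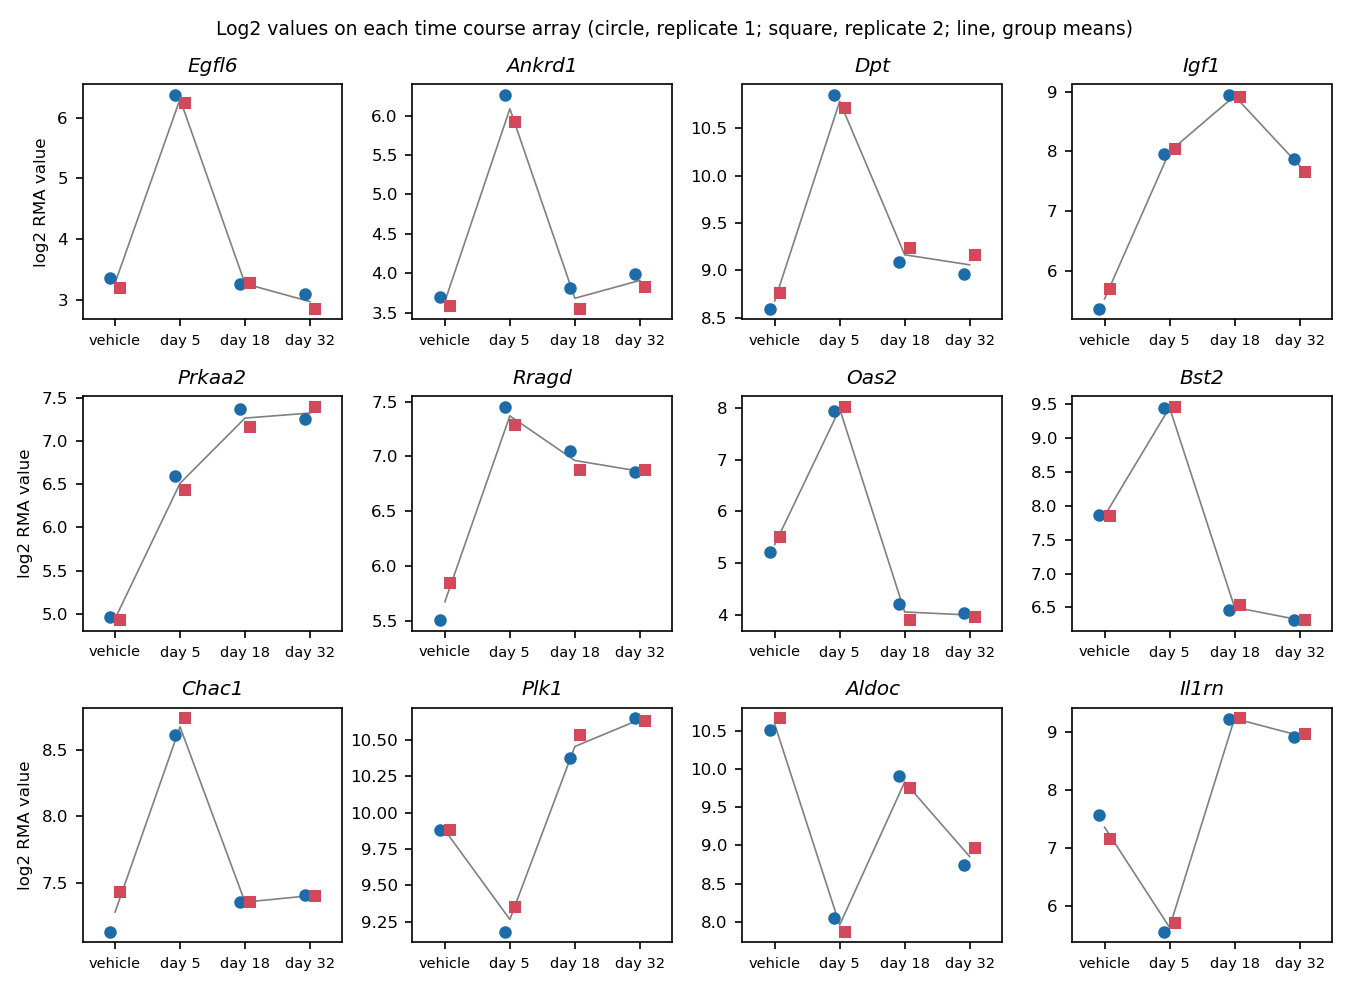
Log2 RMA values (y axis, a separate scale in each panel) of 12 genes on the 8 time course arrays (x axis, group), with a circle for replicate 1, a square for replicate 2 and lines joining the means of the groups. At day 5 both arrays stand above vehicle for Egfl6, Ankrd1, Dpt, Igf1, Prkaa2, Rragd, Oas2, Bst2 and Chac1 and below it for Plk1, Aldoc and Il1rn, with different courses afterwards.

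Interferon-stimulated genes had more members that rose than any other list. Of 44 measured antiviral effectors 33 rose and 1 fell, with a median change of 0.69 and 13 members at 2-fold or more. Oas2, which makes the 2'-5' oligoadenylates that activate RNase L, read 5.22 and 5.50 on the vehicle arrays and 7.94 and 8.02 at day 5 (6.16-fold, adjusted p = 4.58e-06). Trim30a, a TRIM-family protein, moved from 5.57 and 5.52 to 7.20 and 7.20 (3.15-fold), Bst2 (tetherin, which holds budding virus at the membrane) from 7.86 and 7.84 to 9.43 and 9.46 (3.02-fold), and Mx2, a dynamin-like GTPase, from 6.5 and 6.45 to 7.95 and 7.96 (2.79-fold). In each of these both day 5 arrays lay well above both vehicle arrays, beside 28.4% of all genes with day 5 higher and no overlap. Oas1b rose by 1.45 ± 0.099 and Oas1a by 1.30 ± 0.16, and since these close paralogs can share probes their separate values are uncertain, as are those of Ifit3 (1.09) and Ifit3b (0.92). Isg15, the ubiquitin-like modifier, rose by 0.96 ± 0.11, and the antiviral radical enzyme gene Rsad2 by 1.12 ± 0.11. Ifitm1, a membrane protein that hinders virus entry, was the 1 effector to fall, from 9.41 and 9.26 to 8.57 and 8.74 (−0.68 ± 0.085, adjusted p = 0.000789), while its neighbours Ifitm2 and Ifitm3 changed by −0.14 and −0.084.

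Other genes of the interferon system moved less evenly. The interferon gene Ifnb1 stayed at the low end of the scale, at 3.00 and 2.78 on the vehicle arrays and 2.88 and 2.85 at day 5 (−0.024 ± 0.13, 95% interval −0.31 to 0.26). The listed interferon genes Ifna1, Ifna2, Ifna5 and Ifnl3 were not analysed here. Of 12 ligands and receptors 1 rose, the interferon gamma receptor gene Ifngr2 by 0.42 ± 0.081 (adjusted p = 0.0506 without day 5 replicate 2). Of 18 nucleic acid sensors 7 rose and 1 fell, led by Ifi203 at 1.38 ± 0.078 and by the double-stranded RNA sensor gene Ifih1 at 1.15 ± 0.083, whereas Sting1, the adaptor below the DNA sensor cGAS, fell by 0.45 ± 0.12 (adjusted p = 0.18 without day 5 replicate 2, and lost without either vehicle array). Of 14 signalling factors 6 rose and 2 fell. The interferon-inducible factor gene Irf7 moved from 6.49 and 6.42 to 7.49 and 7.42 (1.00 ± 0.11), Stat2 rose by 0.92 ± 0.094, its partner Irf9 by 0.61 ± 0.097, Irf1 by 0.71 ± 0.091, and Usp18, the protease that removes Isg15 and restrains the receptor, by 1.39 ± 0.083. Socs1 and Stat3 fell by 0.45 ± 0.12 and 0.32 ± 0.078, and both calls were lost without vehicle replicate 1 and without day 5 replicate 1 (for the latter, adjusted p = 0.146 and 0.101). Of 9 guanylate-binding and immunity-related GTPases 4 rose, namely Iigp1 by 1.36 ± 0.11, Gbp7 by 1.01 ± 0.073, Gbp3 by 0.79 ± 0.15 and Irgm1 by 0.46 ± 0.076. Rigi was not analysed here.

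Promoter sequence was set beside these values. The interferon-stimulated response element was searched on both strands as a pair of GAAA motifs with any 2 bases between them, from 250 bases before to 50 bases after each start in RefSeq (GRCm38.p6). It was present in 3.905% of 14749 promoters and in 14 of the 35 effectors with a promoter entry (40%), split as 11 of 25 that rose and 3 of the 10 others. The stretches around the element are shown for 3 of the effectors that rose, with the matching letters in capitals, because their list had the most members that rose.
Trim30a, chr7:104465194-104465274, minus strand: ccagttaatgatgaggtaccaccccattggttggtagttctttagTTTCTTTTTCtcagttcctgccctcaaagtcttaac
Bst2, chr8:71537542-71537641, minus strand: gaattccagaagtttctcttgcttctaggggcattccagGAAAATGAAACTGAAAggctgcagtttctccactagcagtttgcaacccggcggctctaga
Oas1a, chr5:120907526-120907584, minus strand: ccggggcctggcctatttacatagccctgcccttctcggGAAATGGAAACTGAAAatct
The Trim30a match is on the opposite strand, and Bst2 and Oas1a each hold 2 overlapping matches. A match is a description of the letters, not of a bound factor.

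Antigen presentation and inflammatory genes rose in part. Of 17 genes for MHC class I presentation 7 rose and 1 fell (median 0.20), and the fall, of the proteasome activator gene Psme1, was lost when any vehicle or day 5 array was left out (adjusted p up to 0.203). H2-K1, a classical class I heavy chain, read 6.82 and 6.74 and then 8.08 and 8.09 (2.47-fold), and the peptide transporter gene Tap1 read 6.09 and 6.18 and then 6.98 and 7.14 (0.93 ± 0.098). B2m, the shared light chain, changed by 0.20 ± 0.071 (adjusted p = 0.0902), and the immunoproteasome genes Psmb8, Psmb9 and Psmb10 by between −0.11 and −0.015, none passing the test. H2-Q6 rose by 1.19 ± 0.12 and may share probes with other Q-region genes. Of 40 NF-kB factors, cytokines and chemokines 17 rose and 3 fell (median 0.24). The chemokine gene Ccl20 moved from 5.95 and 5.96 to 7.92 and 7.73 (3.66-fold), Il6 from 3.34 and 3.51 to 4.92 and 4.64 (2.56-fold), and Cxcl11, a chemokine induced by interferon, from 5.22 and 5.29 to 6.30 and 6.27. These genes started at low or middle levels and both day 5 arrays lay above both vehicle arrays, as for 28.4% of all genes. Saa3, an acute phase protein gene, rose by 1.29 ± 0.11, the feedback inhibitor genes Nfkbie and Tnfaip3 by 0.89 ± 0.099 and 0.78 ± 0.084, and the second-wave factor genes Nfkb2 and Relb by 0.66 ± 0.084 and 0.57 ± 0.075. Besides Lcn2, Cxcl5 and Ccl5 fell, by 0.42 ± 0.11 and 0.36 ± 0.095, and both of these calls were lost without vehicle replicate 1 (adjusted p = 0.131 and 0.167).

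Of 18 measured enzymes of sterol synthesis 16 fell, beside 5.69% of all genes, and the median change was −0.67. At the head of the pathway Hmgcs1, which makes HMG-CoA, read 10.31 and 10.38 on the vehicle arrays and 9.65 and 9.53 at day 5 (−0.75 ± 0.080, adjusted p = 0.000313). In the middle, the isomerase gene Idi1 moved from 10.04 and 10.20 to 9.32 and 9.11 (−0.90 ± 0.092), and the squalene synthase gene Fdft1 from 11.19 and 11.26 to 10.46 and 10.35 (−0.82 ± 0.080). Late in the pathway Tm7sf2, a sterol reductase, moved from 7.39 and 7.21 to 6.13 and 6.07 and was the only member to fall at least 2-fold (2.3-fold). All 4 genes were expressed well above the median gene in vehicle. None of their arrays overlapped between groups, which held for 26.2% of all genes with day 5 lower. The other 12 that fell changed by between −0.76 and −0.31. The exceptions were Ggps1, which serves prenylation rather than sterols, at 0.065 ± 0.076 (adjusted p = 0.636), and Ebp at −0.30 ± 0.094 (adjusted p = 0.0583).

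Genes of sterol control moved both ways. Among 19 genes of uptake, transport and SREBP control 5 rose and 4 fell. Srebf2, the factor that drives the synthesis genes, fell by 0.59 ± 0.073 (adjusted p = 0.000738), and Insig1, its inducible brake, fell by 0.47 ± 0.074, while the other brake gene Insig2 rose by 0.53 ± 0.085. The intracellular carrier gene Stard4 fell by 0.78 ± 0.087 and the lipoprotein receptor gene Scarb1 by 0.69 ± 0.088. The other members that rose were the cholesterol exporter gene Abca1, from 7.38 and 7.10 to 8.11 and 8.31 (0.97 ± 0.11), the apolipoprotein gene Apoe by 0.86 ± 0.072, Mylip, the ligase that degrades the LDL receptor, by 0.83 ± 0.079 and Ch25h, which makes 25-hydroxycholesterol, by 0.61 ± 0.11. The remaining 10 members did not pass. Of 20 genes for fatty acid synthesis 7 fell and none rose (median −0.17), led by the acetyl-CoA synthetase gene Acss2 at −0.86 ± 0.12 and the citrate carrier gene Slc25a1 at −0.54 ± 0.079, while Fasn and Scd1 changed by −0.19 and −0.15 without passing. The sterol regulatory element, searched as TCACNCCAC on both strands in the same promoter windows, was found in 1.42% of all promoters and in 1 of 15 synthesis enzymes with an entry, Hmgcs1, shown here with its match in capitals.
Hmgcs1, chr13:119690169-119690267, plus strand: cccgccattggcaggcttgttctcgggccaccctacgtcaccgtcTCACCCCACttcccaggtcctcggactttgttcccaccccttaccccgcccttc
Among 19 adipocyte and lipid storage genes 4 rose and 2 fell: Pparg, the adipogenic nuclear receptor, moved from 4.03 and 4.10 to 5.29 and 5.46, Plin4 rose by 1.02 ± 0.10, Fabp4 by 0.84 ± 0.11 and Dgat2 by 0.48 ± 0.081, whereas Fabp5 and Plin2 fell by 1.34 ± 0.082 and 0.39 ± 0.084 (for Plin2, adjusted p = 0.0829 without day 5 replicate 2).

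Glycolysis and the response to low oxygen also fell in part. Of 22 glycolysis genes 10 fell and 2 rose (median −0.21), with 1 rising without vehicle replicate 1 or either day 5 array. Beside Aldoc, the phosphofructokinase gene Pfkl moved from 9.0 and 9.15 to 8.22 and 8.03 (−0.95 ± 0.096), Pgk1 from 11.39 and 11.28 to 10.67 and 10.63 (−0.68 ± 0.074) and Tpi1 from 10.78 and 10.80 to 10.18 and 10.17 (−0.62 ± 0.069). These are among the brighter genes on the array, and their day 5 values lay below both vehicle values, as for 26.2% of all genes. Gapdh, Ldha and Pkm changed by −0.14, −0.17 and −0.25, none passing the test. Of 29 hypoxia genes 7 fell and 5 rose, beside 5.69% and 11% of all genes. After median centring, and likewise after quantile normalization, 11 fell and 5 rose. The tumour-associated carbonic anhydrase gene Car9 fell from 7.87 and 8.15 to 6.45 and 6.13 (3.3-fold), Car12 by 0.96 ± 0.080 and the prolyl hydroxylase gene Egln3 by 0.99 ± 0.11. Ero1a, Ndrg1 and Vegfa, which are also induced by other stresses, rose by 0.81 ± 0.088, 0.76 ± 0.088 and 0.52 ± 0.070, and Hif1a changed by 0.20 ± 0.093 (adjusted p = 0.189). The list's median was −0.076.

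In the stress programme of ATF4 and CHOP, 12 of 17 measured factors and targets rose and 1 fell (median 0.46). A count of 8 rose without vehicle replicate 1, day 5 replicate 1 or day 5 replicate 2, and the fall, of Ndrg2, was lost without vehicle replicate 2 or either day 5 array (adjusted p up to 0.101). Trib3, a pseudokinase, read 5.88 and 6.38 and then 7.67 and 7.80 (3.04-fold), Chac1, which degrades glutathione, read 7.14 and 7.43 and then 8.61 and 8.74 (2.62-fold), and Nupr1, a small chromatin protein, read 6.52 and 6.52 and then 7.88 and 7.63 (2.35-fold). Ppp1r15a, the phosphatase subunit that ends the response, rose by 0.81 ± 0.097, Atf3 by 0.61 ± 0.083 and Cebpb by 0.58 ± 0.079. The mRNA of Atf4, which is regulated mainly in translation, changed by 0.015 ± 0.076 (95% interval −0.16 to 0.19), and Ddit3, which encodes CHOP, was not analysed here. Among 23 amino acid genes 10 rose and 2 fell, with 5 rising without day 5 replicate 2 and 1 falling without vehicle replicate 2 or day 5 replicate 1. Slc7a11, the cystine transporter gene, moved from 5.58 and 5.69 to 7.47 and 7.34 (3.4-fold), and the other 9 rose by between 0.23 and 0.51. The serine and asparagine synthesis genes Phgdh, Psat1 and Asns, classical ATF4 targets, changed by 0.11, −0.067 and 0.064 and did not pass. Of 16 tRNA synthetases 3 rose, by between 0.31 and 0.39 (none without vehicle replicate 1 or day 5 replicate 2, and 1 without day 5 replicate 1). Of 19 chaperones of the endoplasmic reticulum 3 rose and 3 fell, with 1 rising without vehicle replicate 1 or day 5 replicate 2 and 1 falling when any vehicle or day 5 array was left out. The composite element bound by ATF4 and CHOP, searched as TGATGNAA on both strands, was in 3.63% of all promoters and in 6 of the 15 listed genes with an entry (40%), 5 of 10 that rose and 1 of 5 that did not. It is shown in capitals for 2 of the members that rose at least 2-fold, in both on the opposite strand.
Chac1, chr2:119351004-119351101, plus strand: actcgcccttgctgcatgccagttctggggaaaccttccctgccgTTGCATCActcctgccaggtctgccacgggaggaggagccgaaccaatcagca
Nupr1, chr7:126625528-126625625, minus strand: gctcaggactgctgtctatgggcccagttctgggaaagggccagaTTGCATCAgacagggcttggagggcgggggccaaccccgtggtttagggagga

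Of 26 lysosome and autophagy genes 12 rose and none fell (median 0.24), with 6 or 7 rising without vehicle replicate 1 or either day 5 array and 6 after median centring. Hexa, a subunit of the hexosaminidase that degrades gangliosides, moved from 6.13 and 6.44 to 7.91 and 7.93 (3.1-fold) and the melanosomal glycoprotein gene Gpnmb from 4.48 and 4.85 to 6.23 and 6.06 (2.79-fold). Ctsl, a cysteine protease, rose by 0.53 ± 0.068, the autophagy gene Uvrag by 0.55 ± 0.082 and the membrane protein gene Lamp1 by 0.43 ± 0.072. Rragd, a GTPase that brings mTORC1 to the lysosome and is no member of the list, moved from 5.50 and 5.84 to 7.45 and 7.29 (3.24-fold).

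Of 27 mitosis genes 19 fell and none rose, and all 27 changes were below 0 (median −0.50). The depolymerising kinesin gene Kif2c read 8.45 and 8.58 on the vehicle arrays and 7.70 and 7.79 at day 5 (−0.77 ± 0.089, adjusted p = 0.000484). The checkpoint kinase gene Bub1b read 9.46 and 9.38 and then 8.73 and 8.61 (−0.75 ± 0.079), and Plk1, the polo-like kinase, read 9.88 and 9.88 and then 9.18 and 9.35 (−0.61 ± 0.086). No member reached 2-fold, and the arrays of these 3 genes did not overlap between groups, beside 26.2% of all genes with day 5 lower. Ccnb2, Cdk1 and Cdc20 fell by 0.64 ± 0.081, 0.56 ± 0.079 and 0.56 ± 0.090, whereas Top2a changed by −0.088 ± 0.072 (adjusted p = 0.468). Of 28 DNA replication genes 6 fell and none rose (median −0.080). A count of 8 fell after median centring and 9 after quantile normalization. Without the dimmest 30% of genes 7 fell and 2 rose. The members that fell included genes of nucleotide supply, Rrm2 by 0.67 ± 0.090, Tk1 by 0.61 ± 0.091 and Rrm1 by 0.41 ± 0.070, while the 6 measured subunits of the MCM helicase, Mcm2 to Mcm7, changed by between −0.11 and 0.15, none passing. The cell cycle homology region, searched as TTTGAA on both strands, was in 17.3% of all promoters and in 18 of the 24 mitosis genes with an entry (75%), 12 of 16 that fell and 6 of 8 that did not. A pair of those that fell is shown, with the element in capitals and that of Kif2c on the opposite strand.
Kif2c, chr4:117178825-117178920, minus strand: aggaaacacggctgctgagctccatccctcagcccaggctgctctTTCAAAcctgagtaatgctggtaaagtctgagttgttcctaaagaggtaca
Ccnb2, chr9:70421671-70421766, minus strand: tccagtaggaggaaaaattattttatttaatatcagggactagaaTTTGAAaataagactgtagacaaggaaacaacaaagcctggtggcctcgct

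Regulators of the cycle moved in both directions. Among 24 cyclins, E2F factors and inhibitors 6 rose and 5 fell (3 fell without day 5 replicate 1), beside 11% and 5.69% of all genes. Cdkn1a, which encodes the inhibitor p21, read 5.04 and 5.17 and then 6.13 and 6.10 (2.01-fold, adjusted p = 3.98e-05). Ccnd2 and Ccnd1, the G1 cyclin genes, rose by 0.98 ± 0.068 and 0.70 ± 0.11, while Ccne1 and Ccna2 fell by 0.47 ± 0.074 and 0.51 ± 0.083. Cdkn2a, a classical PRC2 target, fell from 7.36 and 7.31 to 6.94 and 6.84 (−0.44 ± 0.089, adjusted p = 0.00871, up to 0.0661 without day 5 replicate 2). Of 24 p53 targets 6 rose and 2 fell (median 0.14), with 3 rising without vehicle replicate 1 and 1 falling without day 5 replicate 1. The signal for Myc rose from 10.89 and 11.09 to 11.59 and 11.56 (0.58 ± 0.083), and whether its probes read the human transgene as well as the mouse gene was not tested. Of 30 genes for ribosome biogenesis 5 rose and none fell (3 rose without vehicle replicate 1 and 2 without day 5 replicate 2), and of 25 ribosomal proteins none passed (median −0.011).

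**Figure D2:**
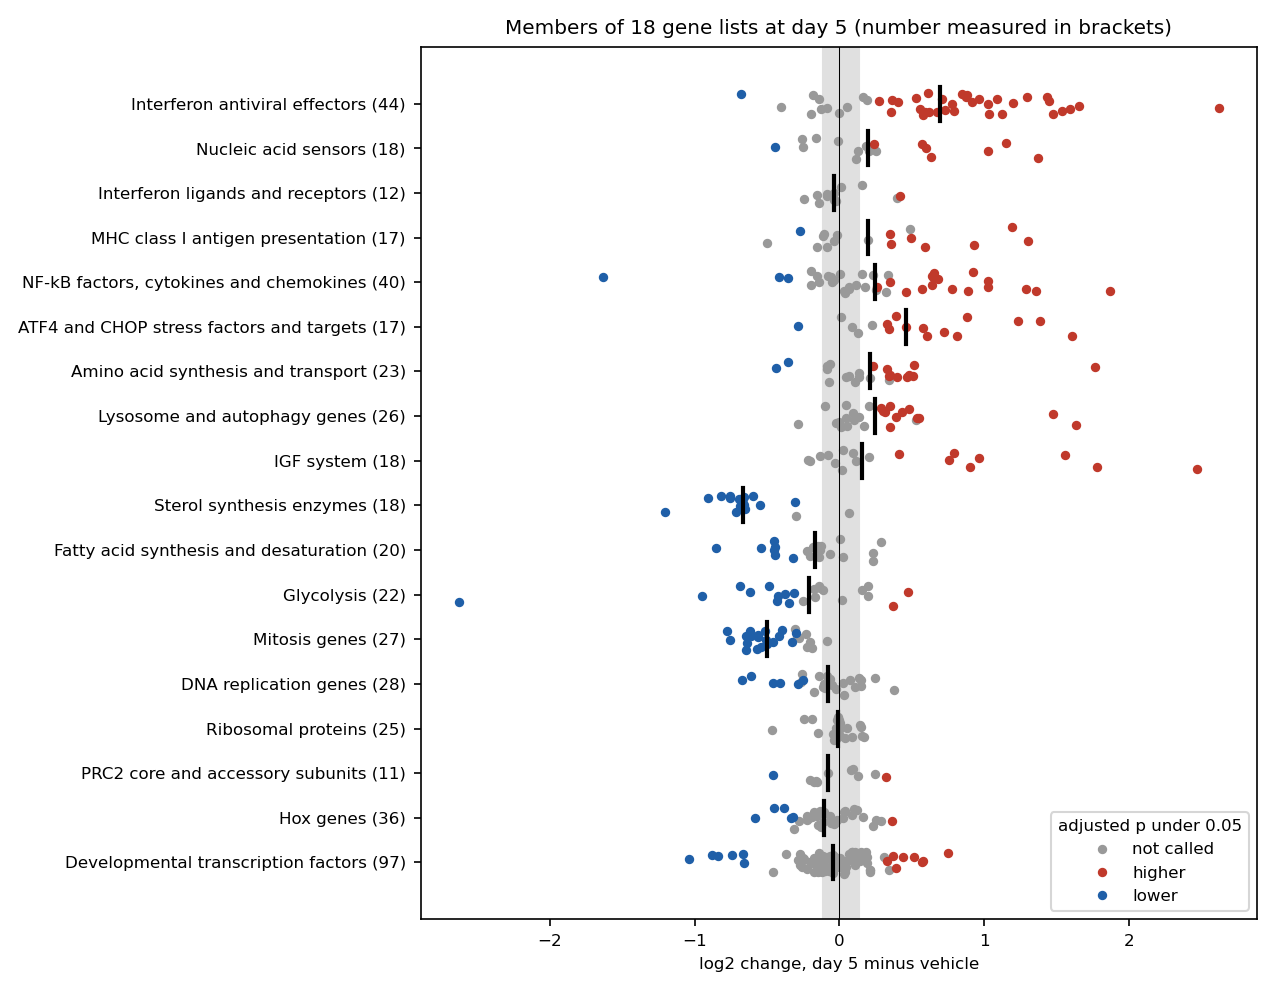
Log2 change from vehicle to day 5 (x axis) of every measured member of 18 gene lists (y axis, number measured in brackets), red where higher and blue where lower at an adjusted p under 0.05 and grey otherwise, with a black bar at each list's median and the quartiles of all genes shaded. The antiviral effectors (median 0.69) and the ATF4 and CHOP list (0.46) sit to the right of the shaded band, sterol synthesis (−0.67) and mitosis (−0.50) to its left, and ribosomal proteins, PRC2, Hox genes and developmental factors within it.

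Calls among the collagens went in both directions. Of 22, 2 rose and 2 fell (median 0.0065), beside 11% and 5.69% of all genes, with 4 rising and 1 falling without vehicle replicate 2. Col1a1 and Col3a1 rose by 0.79 ± 0.099 and 0.77 ± 0.082, against Col11a1, a cartilage fibril collagen, which fell by 1.03 ± 0.093, and Col6a2 (adjusted p = 0.218 without day 5 replicate 1). Of 28 glycoproteins, proteoglycans and hyaluronan genes 9 rose and 4 fell. Elastin (Eln) read 9.18 and 10.02 on the vehicle arrays, which differed widely, and 10.64 and 10.73 at day 5 (1.08 ± 0.22, adjusted p = 0.00973, and 0.0661 without day 5 replicate 2). Fbln2 rose by 0.97 ± 0.11 and Postn by 0.79 ± 0.087, while aggrecan (Acan) fell by 0.90 ± 0.16. Of 29 matrix proteases and inhibitors 10 rose and 2 fell. Fap, the fibroblast activation protein, moved from 4.47 and 4.06 to 6.29 and 6.27 (4.04-fold), the aggrecanase gene Adamts5 from 6.61 and 6.84 to 8.23 and 8.10 (2.71-fold), and the lysyl oxidase gene Loxl4 rose by 1.01 ± 0.11, while Timp1 fell by 0.62 ± 0.12 (adjusted p = 0.06 without day 5 replicate 1). Among 22 cartilage and tendon genes 6 fell and 4 rose (2 rose without vehicle replicate 1 or day 5 replicate 2). The 6 were Col9a1, Sox6, Cnmd, Sox5, Col2a1 and Matn2, and the 4 were Tnmd, Epyc, Scx and Mkx. The calls of Scx and Mkx were lost without day 5 replicate 2 (adjusted p = 0.112 and 0.0848), and those of Col2a1 and Matn2 without day 5 replicate 1 (0.163 and 0.0547). Col9a1 fell by 0.97 ± 0.12, Sox6 by 0.84 ± 0.12 and Cnmd by 0.72 ± 0.086, whereas Tnmd rose by 0.68 ± 0.097. Of 25 SRF and YAP targets 6 rose and 1 fell, and the fall, of the factor gene Srf itself, was lost without vehicle replicate 2 or either day 5 array (adjusted p up to 0.0851). Ankrd1, a nuclear cofactor, moved from 3.70 and 3.58 to 6.26 and 5.92 (5.44-fold). The related target gene Ccn1 rose by 0.31 ± 0.084 (adjusted p = 0.161 without vehicle replicate 1).

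The insulin-like growth factor (IGF) system had its largest changes in secreted members. Of 18 genes 8 rose and none fell. Igf1, the ligand, read 5.37 and 5.69 on the vehicle arrays and 7.96 and 8.04 at day 5 (5.53-fold, adjusted p = 4.58e-06). Its binding protein Igfbp4 moved from 9.01 and 8.61 to 10.53 and 10.65 (3.44-fold), and Pappa, the protease that cleaves Igfbp4, from 4.92 and 5.24 to 6.75 and 6.53 (2.95-fold). All 3 were higher on both day 5 arrays than on either vehicle array, as were 28.4% of all genes. The receptor gene Igf1r changed by 0.026 ± 0.092 (adjusted p = 0.887). Of 33 other growth factor ligands 12 rose and 1 fell (none fell without vehicle replicate 2 or either day 5 array), led by Fgf18 at 1.1 ± 0.10 and the EGF-family gene Hbegf at 1.02 ± 0.14, and of 22 receptors 8 rose and 3 fell (4 rose when either day 5 array was left out, and 1 fell without day 5 replicate 1), led by Tek at 1.53 ± 0.11 and the VEGF receptor gene Flt1 at 0.99 ± 0.088.

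In the TGF beta and BMP list of 43 genes 12 rose and 2 fell, beside 11% and 5.69% of all genes. Bmp4 moved from 9.57 and 10.06 to 11.00 and 10.99 (1.18 ± 0.17) and Ltbp1, which anchors latent TGF beta in the matrix, from 7.18 and 6.89 to 8.29 and 8.44 (1.33 ± 0.11). The ligand gene Tgfb3 rose by 0.73 ± 0.073, and Tgfb1 fell by 0.55 ± 0.11 (adjusted p = 0.0526 without vehicle replicate 2 and 0.0699 without day 5 replicate 1). Of 42 Wnt genes 10 rose and 5 fell, beside the same shares of all genes, with 6 rising without vehicle replicate 1. Rspo2, a secreted amplifier of Wnt signals, moved from 6.90 and 6.57 to 8.40 and 8.46 (3.24-fold), and Lgr5, which encodes a receptor for R-spondins and is not in the list, from 8.21 and 8.64 to 10.08 and 10.17 (3.25-fold). The Wnt antagonist gene Frzb fell from 7.76 and 7.99 to 6.70 and 6.77 (2.21-fold). The response gene Axin2 changed by 0.12 ± 0.15 (adjusted p = 0.672), and the nuclear factor gene Lef1 fell by 0.45 ± 0.082 (adjusted p = 0.00512). Of 20 Notch genes 3 rose and 1 fell (1 rose without day 5 replicate 2), beside 11% and 5.69% of all genes. The ligand gene Jag1 rose by 1.25 ± 0.081.

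Developmental regulators are the genes on which PRC2 is best known to act. Of 97 transcription factors 8 rose and 6 fell, beside 11% and 5.69% of all genes, with a median of −0.046, and 5 rose without day 5 replicate 1 or without day 5 replicate 2. The balance of these factors depended on the scaling between arrays. After median centring 5 rose and 15 fell (1473 and 2103 over all genes), and after quantile normalization 7 and 14 (1684 and 1546). The largest rise was that of the mesoderm factor gene Meox1, from 4.78 and 5.00 to 5.51 and 5.78, and the largest falls were those of Runx1 and of Dlx1, from 6.74 and 6.75 to 5.78 and 5.94. Of 36 Hox genes 1 rose and 5 fell (median −0.11), Hoxb3 by 0.36 ± 0.083 against Hoxa3, Hoxc9, Hoxc5, Hoxa5 and Hoxc4. Without vehicle replicate 1 or day 5 replicate 2 a count of 2 fell (3 without day 5 replicate 1), and Hoxb3 was lost without vehicle replicate 1 or day 5 replicate 1 (adjusted p = 0.0869 and 0.106). Some genes that stood far above vehicle later did not pass at day 5: Foxp2, a forkhead factor, changed by 0.21 ± 0.14 (95% interval −0.10 to 0.52) against 5.75 at day 18, Rorb, an orphan nuclear receptor, by 0.31 ± 0.15 (−0.018 to 0.64) against 5.86, and Hoxb9 by −0.21 ± 0.14 (−0.52 to 0.10) against 4.05. Cpa6, a carboxypeptidase gene, read 3.37 and 3.26 and then 3.46 and 3.81 (0.31 ± 0.13, adjusted p = 0.128, and 0.0464 without day 5 replicate 1).

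The later days are set beside day 5 without a test of likeness, because they share the vehicle arrays. In the antiviral list 33 members were higher at day 5, whereas 32 were lower at day 18, beside 10.5% of all genes, and 37 at day 32, beside 14.2%. Oas2 changed from vehicle by 2.62 at day 5, −1.30 at day 18 and −1.36 at day 32. The mitosis list had 19 members lower at day 5 and all 27 higher at both day 18 (15.2% of all genes) and day 32 (18.4%), with medians of −0.50, 0.77 and 0.92. Sterol synthesis had 16, 11 and 18 of its 18 members lower at days 5, 18 and 32 and medians of −0.67, −0.30 and −0.69. The ATF4 and CHOP list had 12, 3 and 6 members higher, and the lysosome list 12, 1 and none, with 14 and 21 of its 26 members lower at days 18 and 32. Of the genes described above, Egfl6, Strip2, Vsig1, Ankrd1 and Chac1 differed from vehicle by between −0.15 and 0.075 at day 18. Igf1, Prkaa2, Arrb1 and Slit3, picked from the 20 genes also called higher in Ezh2 null cells (below), were 3.40, 2.32, 2.53 and 1.71 above vehicle at day 18. Both sets of genes are examples. The others of the 20 are not given at day 18, so no difference in course between the sets is to be read from these values.

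**Figure D3:**
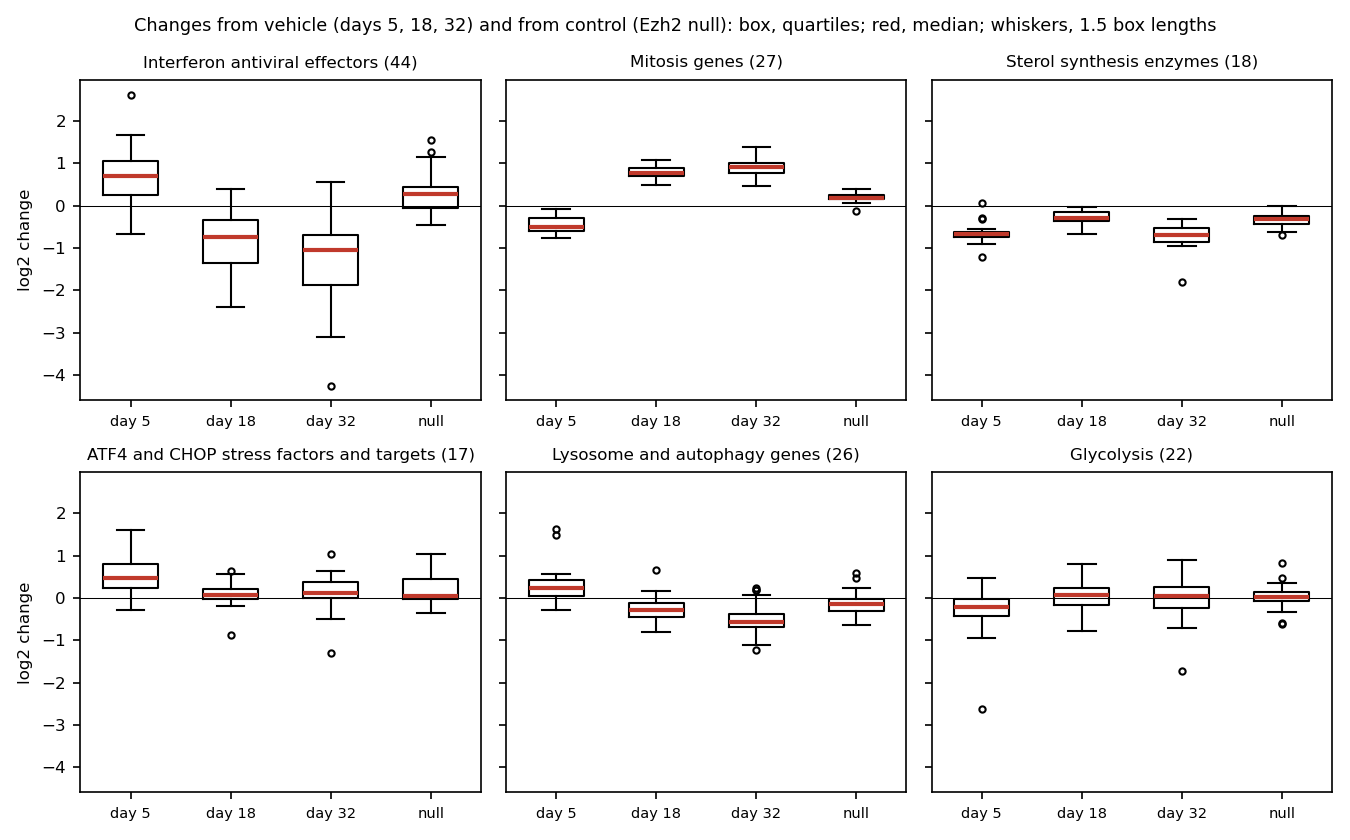
Log2 change (y axis, the same scale in all panels) of the members of 6 lists from vehicle to day 5, 18 and 32 and from control to Ezh2 null cells (x axis), with boxes at the quartiles, red lines at the medians, whiskers up to 1.5 box lengths and circles beyond. The medians of the antiviral and mitosis lists lie on opposite sides of 0 at day 5 and day 18, while that of sterol synthesis lies below 0 in all 4 comparisons.

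Ezh2 null cells of the rescue experiment share no array with the time course and were compared with their own controls, labelled wild type for Ezh2. The null cells had also met tamoxifen, and the labels do not give the treatment of the controls. Of the 181 genes higher at day 5, 20 were higher in null cells (11.0%), beside 1.21% of all genes, and 2 were lower, Lgr5 and Eln. Their median change in null cells was 0.32, against −0.030 over all genes, and 139 of the 181 were above 0 (76.8%), beside 41.5% of all genes. Of the 35 lower genes 6 were lower in null cells (17.1%), beside 0.76% of all genes, and Il13ra1 was higher. The lower count rests on few genes and was 11 without control replicate 1 and 2 without Ezh2 null replicate 2.

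The genes higher in both comparisons had several roles. Prkaa2, the alpha 2 catalytic subunit of the energy sensor AMPK, read 4.96 and 4.93 on the vehicle arrays and 6.59 and 6.43 at day 5, and 6.70 and 6.6 in control and 9.26 and 9.54 in null cells (2.75 ± 0.16, adjusted p = 0.00112). Rragd read 5.86 and 6.46 in control and 9.07 and 8.93 in null cells (2.84 ± 0.19, adjusted p = 0.00142), and Igf1 read 5.95 and 6.62 and 9.87 and 8.58 (2.94 ± 0.37, adjusted p = 0.0113). In each of these the null arrays lay above both control arrays. These genes were picked from those called higher in null cells, and the share of all genes with such arrays was not counted. The signalling adaptor gene Arrb1 (beta-arrestin 1) was higher by 1.76 ± 0.17 in null cells after 1.53 ± 0.079 at day 5, and the secreted guidance gene Slit3 by 1.64 ± 0.23 after 1.82 ± 0.082. Dtx4, Dhrs9, Igfbp4, H2-K1, Sema3a, Prxl2a, Rsad2, Ppef1, Cdkn1a and Loxl4 were higher by between 1.01 and 1.74, and Ccl20, Nuak2, Nupr1, Man2b2 and Slc25a23 by between 0.53 and 0.73. Of the lower genes, Frzb changed by −2.51 ± 0.36 in null cells, Slc26a2, a sulfate transporter gene, by −0.98 ± 0.12, Arhgef26 by −0.87 ± 0.15, Aldoc by −0.60 ± 0.11 and Cbr2 by −0.59 ± 0.11, and the sixth was a cDNA clone. Il13ra1, a receptor chain for interleukin-13, went the other way, from 8.87 and 8.84 to 7.74 and 7.73 at day 5 and from 6.71 and 6.22 in control to 8.67 and 9.16 in null cells.

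In null cells 1.21% of all genes were higher and 0.76% lower, with a median of −0.030. Beside these, 2 of the 44 antiviral effectors were higher (median 0.27), and 2 of the 17 ATF4 and CHOP genes (median 0.055). None of the 18 sterol enzymes was lower (median −0.31), and none of the 27 mitosis genes passed either way (median 0.18). With so few genes called in null cells, the absence of calls in lists of this size says little. Levels are not compared between the experiments, which were normalized apart.

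**Figure D4:**
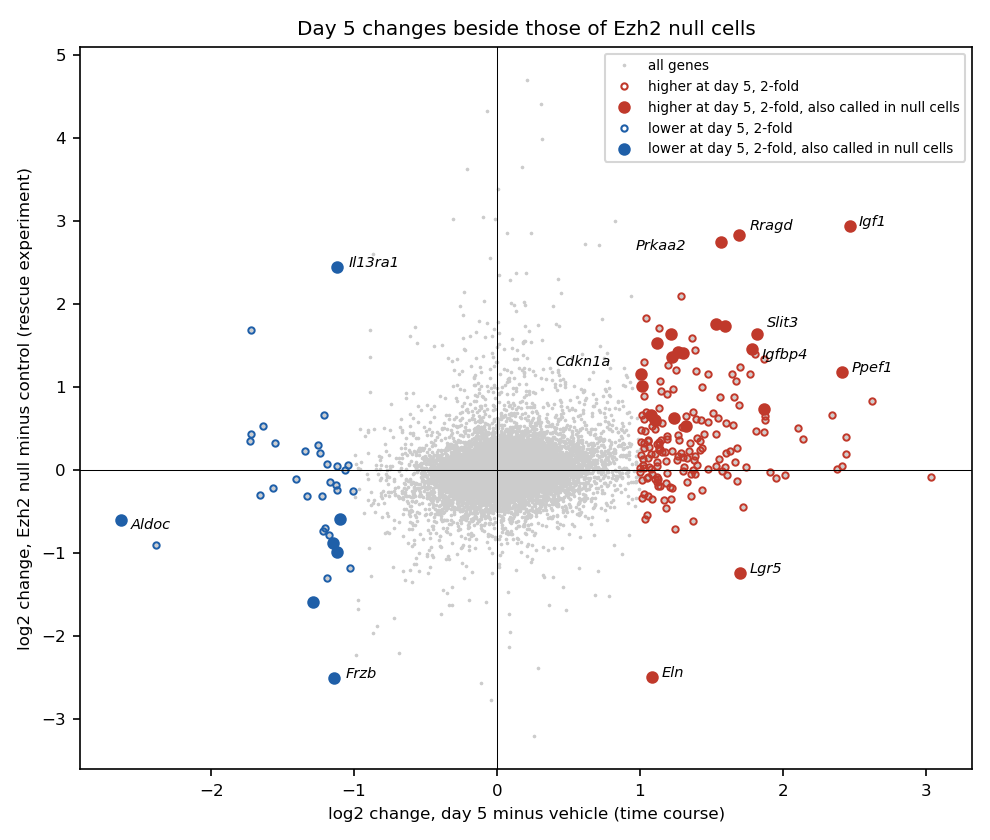
Log2 change from vehicle to day 5 (x axis) and from control to Ezh2 null cells (y axis), with a grey point for every gene, open circles for the genes at least 2-fold higher (red) or lower (blue) at day 5, and filled circles for those also called in null cells in either direction. Of the 181 red circles 20 are filled above 0 and 2 below it (Lgr5 and Eln), and of the 35 blue circles 6 are filled below 0 and 1 above it (Il13ra1).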

How the data were processed

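Total RNA (100 ng per array) of clone C2 was hybridised to Affymetrix Mouse Gene 1.1 ST arrays, and the authors background-corrected, normalized and summarised the intensities by RMA in the R package oligo, depositing log2 values per probe set. Time course and rescue arrays were treated as separate experiments. Whether the deposited rescue values carry a batch correction is not given in the sources used here. Of 28440 probe sets, 21217 had 1 gene symbol, and the brightest probe set of each gene was used, giving 18820 genes.

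For each gene, limma (3.58.1, under R 4.3.3) fitted a mean per group over the 8 time course arrays with lmFit and moderated the variance with eBayes (two-sided, Benjamini-Hochberg over all genes). The rescue fit used 10 arrays with the replicate number as a block, since the methods state a batch difference. The study's own test was a rank product with limits of 15% and 2-fold. The fit was tested on simulated data.

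Members and 55 gene lists were chosen with earlier results of these data known. Named were Ezh2, Ezh1, Eed, Suz12, Cpa6, Cdkn1a and Cdkn2a, the 20 largest rises and falls, and per list up to 6 higher and 4 lower members by adjusted p. A further 66 genes were named after their values were seen, among them Hmgcs1, Mx2, Plk1, Prkaa2, Rragd, Ifnb1, Atf4, Foxp2 and the genes called in Ezh2 null cells. Alternatives were the scaling between arrays, the arrays fitted, a replicate block, dim genes, the prior, several probe sets per gene, the study's limit and each array left out.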

Additional observations from a re-analysis of the deposited data

Results flagged for a closer look

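Several genes that changed at least 2-fold at day 5 had changed at least 2-fold the other way at day 18. They were picked for these values, so the differences are a description, and no test of them is given. Day 18 minus day 5 was −3.92 log2 units for Oas2 (2.62 against vehicle at day 5 and −1.30 at day 18) and 3.58 for Il1rn (−1.72 and 1.86). The other antiviral genes were Bst2 at −2.94, Oasl2 at −2.89, Mx2 at −3.01, Ifit3 at −3.44, Oas1a at −2.45 and Oas1b at −3.06, and the related Usp18 and Ifi203 stood at −3.05 and −2.88. Elastin (Eln) stood at −3.73 (1.08 and −2.65).

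Probe sets with several gene symbols or none entered no comparison above. Of these 7223 probe sets, 70 were at least 2-fold higher at day 5 (0.969%) and 7 lower (0.0969%) in limma, beside 0.962% and 0.186% of genes.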

How the results depend on the processing

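The counts of genes at least 2-fold higher and lower (181 and 35) were 181 and 35 with only the 4 arrays of the comparison, 173 and 35 without the dimmest 30% of genes and 179 and 31 with the mean of a gene's probe sets. With each of the 8 arrays left out in turn they ranged from 170 to 203 and from 32 to 54, the latter without vehicle replicate 1, and at any fold (2065 and 1071) from 1247 to 2050 and from 560 to 939. Median centring, which moved the median of all genes to −0.09, gave 2103 lower genes at any fold, and an adjusted p under 0.15 gave 3152 higher and 2088 lower. Same-numbered arrays did not deviate together (correlations of −0.07 to 0.06 for the 6 group pairs), and the numbers were not taken as pairs. With the replicate number as a block the counts were 181 and 35 at 2-fold and 1957 and 974 at any fold, and 7 of 351 called genes named here were lost. The genes called the same way in Ezh2 null cells (20 and 6) were 28 and 5 without the replicate block, and with single arrays left out ranged from 16 to 29 and from 2 to 11, the lower counts being 11 without control replicate 1 and 2 without Ezh2 null replicate 2. Of the 351 called genes, 263 kept their call under every alternative run and 87 lost it without at least 1 array.

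Sign changed for some genes that had not passed the test. After median centring Asns stood at −0.019, Atf4 at −0.069, Ggps1 at −0.019 and Igf1r at −0.058, and after quantile normalization Atf4 stood at −0.061, Ifnb1 at 0.020 and Igf1r at −0.024. With single arrays left out, Hoxb9 from −0.44 to 0.015, Ifnb1 from −0.13 to 0.085, Psmb9 from −0.040 to 0.0098, Atf4 from −0.051 to 0.081, Axin2 from −0.034 to 0.26, Foxp2 from −0.015 to 0.44, Igf1r from −0.079 to 0.13, Psmb8 from −0.12 to 0.044 and Ggps1 from −0.0080 to 0.14 were the ranges of the change. The cause was not tested.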

Other observations

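Other gene groups moved in part at day 5. Of 29 immediate early and MAPK feedback genes 8 rose and 2 fell, beside 11% and 5.69% of all genes, with 5, 5 and 4 rising without vehicle replicate 1, day 5 replicate 1 and day 5 replicate 2, and with 3 falling without vehicle replicate 1 and 1 without vehicle replicate 2 or either day 5 array. Spry1, a feedback inhibitor of receptor kinases, and Fosb, an AP-1 subunit, rose by 0.73 and 0.65, and Phlda1 fell by 0.90. Of 14 complement and acute phase genes 5 rose and 1 fell, among them C1s1, a protease that starts the classical pathway, from 7.61 and 7.55 on the vehicle arrays to 8.58 and 8.47 at day 5. Ptgs2, the inducible cyclooxygenase gene, rose from 6.29 and 6.42 to 7.16 and 7.38, and Hmox1, which degrades haem, from 9.02 and 9.19 to 9.89 and 9.97. The NRF2 list as a whole had 3 of 25 members higher and 3 lower. Among 20 integrins 4 rose and 3 fell (1 fell without day 5 replicate 1 or without day 5 replicate 2), with the collagen receptor gene Itga11 moving from 6.01 and 6.02 to 6.92 and 6.95 and Itgb3 from 6.35 and 7.06 to 5.28 and 5.75.

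Tamoxifen binds oestrogen receptors. Of 15 genes for these receptors and their targets 3 rose and 1 fell, beside 11% and 5.69% of all genes. Ccn5, a matricellular protein gene, moved from 7.98 and 8.12 to 9.61 and 9.59, and Gper1, the membrane receptor gene, from 7.43 and 7.94 to 6.85 and 6.73. Esr1, which encodes oestrogen receptor alpha, read 6.48 and 6.33 and then 6.49 and 6.6, and the classical target Pgr read 3.28 and 3.11 and then 3.05 and 3.02, neither passing the test. Of 21 imprinted genes 4 rose and 1 fell, with 2, 2 and 1 rising without vehicle replicate 1, day 5 replicate 1 and day 5 replicate 2, and Peg10 moved from 11.49 and 11.62 to 10.77 and 10.87. Of 23 respiratory chain genes 3 fell, and all 3 calls (Ndufa9, Sdhd and Ndufa4) were lost without at least 1 array (adjusted p up to 0.2).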
